A study of Mus musculus with 33 samples.

Results

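The transcriptome of Tim4+ Kupffer cells (KCs) from mice with *Zeb2* deleted in KCs was compared with that of KCs from control mice, using 12 of the 33 bulk RNA-seq samples of the study and every gene row they share. The control group was 6 samples of KCs from *Zeb2* fl/fl mice without Cre (CRE- KCs), and the other group was 6 samples of KCs sorted as Tim4+ (CRE+ Tim4+ KCs), whose genotype was *Clec4f-cre*x*Zeb2* fl/fl. All groups therefore carried the floxed *Zeb2* alleles, on a C57Bl/6 background, and mice of both sexes were used at 6 to 8 weeks of age. A further group, 6 samples of Tim4- KCs sorted from the CRE+ mice, entered only to share the estimate of the spread and to show where the Tim4+ cells differed from it. The Cre was knocked into the *Clec4f* gene behind an internal ribosome entry site, so CRE+ mice also differed from control mice at *Clec4f* itself. The study's methods and results state that Cre lines of this kind left some macs with an undeleted *Zeb2* allele and that *Clec4f-cre* reached a minor share of B cells. The labels state neither the share of recombined cells in each sample nor whether control KCs were sorted on Tim4. They number the samples of each group without naming mice, so the p-values measure the spread between these samples.

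KCs reside in the sinusoids of the liver, where as macs they clear particles, senescent red blood cells and hemoglobin from the blood, and they are marked in mice by the lectin CLEC4F and, once long resident, by the phosphatidylserine receptor Tim4. ZEB2 is a zinc finger transcription factor that binds E-box sequences with CACCTG at their core and is known mainly as a repressor, for example of *Cdh1* during epithelial-to-mesenchymal transition. In the mac lineage it is expressed in tissue-resident macs of many organs.

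Between 19042305 and 22933576 reads per CRE- KC sample and between 18566846 and 22539574 reads per CRE+ Tim4+ KC sample were counted on genes. No pair of replicates was as similar as sampling noise allows, the lowest chi-square per gene being 18.5, so all samples were counted separately. Replicates 5 and 6 of each group had 2706 to 3663 Y-linked counts and none on *Xist*, and replicates 1 to 4 had 260 to 534 counts on *Xist* and at most 4 Y-linked counts, so the groups were balanced for sex. Replicates 2 and 3 of the CRE+ Tim4+ KCs stood apart in liver endothelial markers, which summed to 7011 and 5435 CPM (counts scaled to a common library size) against 986 to 4342 CPM in CRE- KCs and 2471 to 3265 CPM in the other 4 CRE+ Tim4+ KC samples. The KC markers were present throughout. Of 12 such genes, the lowest median was 260.4 CPM in CRE- KCs and 173 CPM in CRE+ Tim4+ KCs.

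Relative to CRE- KCs, the CRE+ Tim4+ KCs had 242 higher (1.94%) and 47 lower (0.376%) genes among 12500 tested, by edgeR's quasi-likelihood test with a Benjamini-Hochberg adjusted p under 0.05 and a log2 fold change beyond 1. Genes past both limits are called higher or lower from here on. At any size of change, 761 genes (6.09%) passed the adjusted p, 454 upward and 307 downward. The 6 CRE+ Tim4+ KC values lay above all 6 CRE- KC values for 355 genes (2.84%) and below them for 255 genes (2.04%), and these included 181 of the 242 higher genes and all 47 lower genes. The median log2 fold change over all genes tested was -0.0031. Without CRE+ Tim4+ KC replicates 2 and 3, a comparison added after the data were seen, 231 genes were higher and 51 lower, of which 210 and 37 were among those above. Of the 67 called genes described by name under the rules used, *Bmpr1a*, *Ccnd2*, *Fas*, *Ifi44*, *Isg20* and *Traf1* then lost their call.

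**Figure D1:**
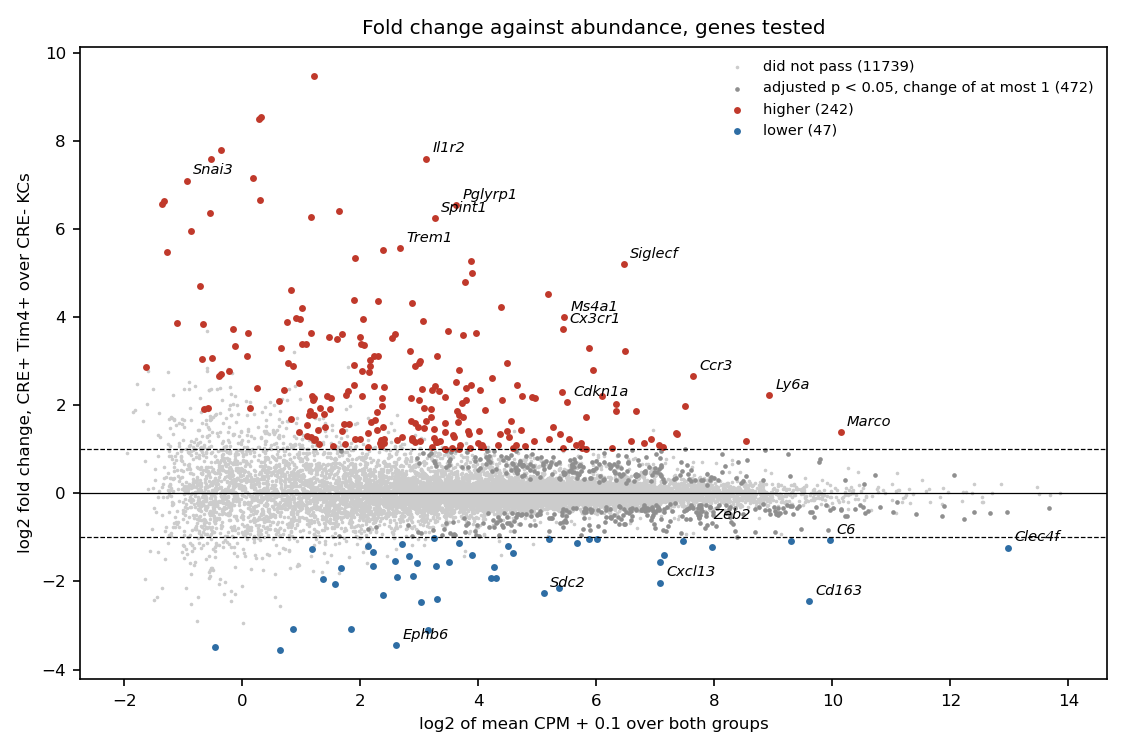
Log2 fold change of CRE+ Tim4+ KCs over CRE- KCs (vertical axis) against log2 of the mean CPM over both groups plus 0.1 (horizontal axis), one point per gene tested. The 242 higher genes (red) gather toward low abundance, while *Clec4f*, *Marco*, *Cd163* and *C6* are called genes at high abundance.

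*Zeb2*, on chromosome 2 from 44983512 to 45117442 (GRCm38), had a lowest, median and highest value of 237, 291 and 349.9 CPM in CRE- KCs and of 149, 167 and 215 CPM in CRE+ Tim4+ KCs. The groups did not overlap, and the log2 fold change was -0.71 (SE 0.10, adjusted p = 9.79e-05), which passed the adjusted p but not the fold limit. The floxed allele still yields a truncated mRNA with the 3' end of the gene, so counts over the whole gene do not check the deletion. In CRE+ Tim4- KCs, *Zeb2* ranged from 151 to 199.7 CPM, and the log2 difference from CRE+ Tim4+ KCs was -0.04 (adjusted p = 0.84).

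*Timd4*, which encodes the sort marker Tim4, had 687, 735 and 790.5 CPM (lowest, median and highest) in CRE- KCs and 282, 400.2 and 450.3 CPM in CRE+ Tim4+ KCs. Every CRE+ Tim4+ KC sample lay below every CRE- KC sample. Tim4- KCs had at most 8.51 CPM, and because their spread enters the shared fit, the log2 fold change of -0.91 had an adjusted p of 0.181 there. With only the 12 samples compared, the adjusted p was 1.479e-05. As in every bulk comparison here, fewer cells with a transcript and less of it per cell cannot be told apart.

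*Clec4f*, the KC lectin, ranged from 10608 to 12592 CPM around a median of 11162 CPM in CRE- KCs and from 4190.3 to 5382 CPM around 4845 CPM in CRE+ Tim4+ KCs. The groups did not overlap, the log2 fold change being -1.23 (SE 0.084, adjusted p = 4.57e-09). The gene lies on chromosome 6 from 83644542 to 83656116, and CRE+ mice carry the Cre cassette in it. An effect of the cassette on *Clec4f* counts and one of the *Zeb2* deletion cannot be told apart. The tested genes within 100 kb, *Stambp* and *Cd207*, had log2 fold changes of 0.08 and -0.20 and did not pass.

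*Nr1h3*, which encodes the oxysterol receptor LXR alpha, had 813, 882 and 1060.4 CPM in CRE- KCs and 543, 681 and 821 CPM in CRE+ Tim4+ KCs. The ranges overlapped, and the log2 fold change of -0.42 (SE 0.12, adjusted p = 0.0341) did not reach the fold limit. Among 24 tested LXR target genes none was called by edgeR, beside 1.94% higher and 0.376% lower of all genes tested. For a list of this size, no call is close to those shares. Below the fold limit, 1 target gene passed the adjusted p upward and 2 downward. At an unadjusted p under 0.05, 2 were higher and 4 lower. With limma-voom 1 was called higher, and with DESeq2 none. The list's median log2 fold change was -0.0002 against -0.0031 over all genes tested. *Pltp*, a phospholipid transfer protein, had a log2 fold change of -0.39 (adjusted p = 0.033), and *Apoe* one of -0.01 (adjusted p = 0.993).

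**Figure D2:**
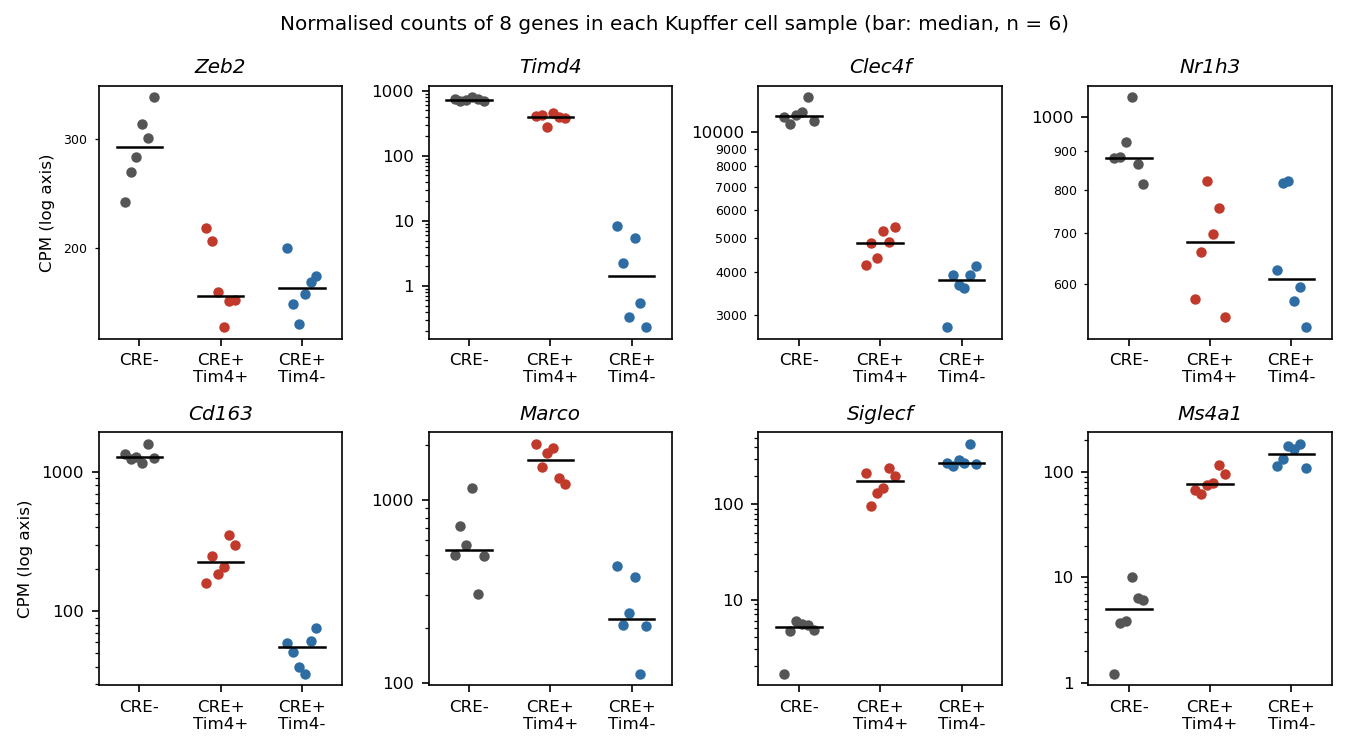
CPM on a log axis of 8 genes in each sample of the 3 KC groups, one point per sample and a bar at the median (n = 6 per group). *Siglecf* and *Ms4a1* were near the bottom of their scale in all CRE- KC samples, *Timd4* in all Tim4- samples, and *Marco* was highest in the CRE+ Tim4+ KCs.

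Among the higher genes, *Siglecf* had the smallest adjusted p of those named. It encodes Siglec-F, a sialic acid-binding inhibitory lectin known from eosinophils and alveolar macs, on chromosome 7 from 43351341 to 43359475. CRE- KCs had 1.67, 5.1 and 5.9 CPM (lowest, median, highest) and CRE+ Tim4+ KCs 97.1, 174 and 243 CPM. The groups were far apart and the log2 fold change was 5.20 (SE 0.27, adjusted p = 1.73e-10), or 36.8-fold. Of the 7 tested Siglec family genes it was the one called (14.3%), beside 1.94% higher and 0.376% lower of all genes tested. *Siglecf* was chosen with earlier results known, so that share is no separate result. *Cd22* had a log2 fold change of -0.82 (adjusted p = 0.0272) and *Siglec1*, the sialoadhesin gene, one of -0.47 (adjusted p = 0.0197), both below the fold limit. That of *Siglece* was -0.29 (adjusted p = 0.328).

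*Ms4a1*, on chromosome 19 from 11249679 to 11266149, encodes CD20, a tetraspan membrane protein known from B cells. It had 1.22, 4.97 and 9.95 CPM in CRE- KCs and 61.8, 76.8 and 118 CPM in CRE+ Tim4+ KCs. No CRE- sample came near the CRE+ Tim4+ range, and the log2 fold change was 3.998 (SE 0.31, adjusted p = 2.6e-08), or 15.98-fold. No other B cell marker was called higher among 14 tested. *Pax5*, the B lineage factor, stayed at or under 0.414 CPM in both. *Cd79b*, a signalling chain of the B cell receptor, was lower, from 40.2 to 61.3 CPM down to 15.2 to 31.4 CPM (log2 fold change -1.03, SE 0.17, adjusted p = 0.000519). That change came under the fold limit without CRE+ Tim4+ KC replicate 4, 5 or 6 or without CRE- KC replicate 4. Among the 8 tested *Ms4a* genes only *Ms4a1* was called (12.5%), beside 1.94% higher and 0.376% lower of all genes tested. The filter on low counts left out 8 of the 16 measured genes, and *Ms4a1* was chosen with earlier results known. Its nearest tested neighbour *Ms4a7* had a log2 fold change of 0.86 (adjusted p = 0.16).

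The genes with the greatest increase, chosen as called genes with no overlap between groups and a mean of at least 10 CPM in the higher group, numbered 12, *Siglecf* and *Ms4a1* included. The absence of overlap in them is set by that rule. *Il1r2* encodes the decoy receptor that captures interleukin-1 without signalling. It had no count in 5 of 6 CRE- KC samples and 0.544 CPM in the sixth, and 11.5, 14.7 and 28 CPM in CRE+ Tim4+ KCs, for a rise of 7.60 on the log2 scale (SE 0.62, adjusted p = 4.49e-08) whose size depends on the small count edgeR adds. *Pglyrp1*, a secreted peptidoglycan-binding protein of innate defence, ranged from 0.0472 to 0.489 CPM in CRE- KCs and from 11.9 to 43.2 CPM in CRE+ Tim4+ KCs, and rose by 6.55 on the log2 scale (SE 0.42, adjusted p = 3.09e-09). *Trem1*, a DAP12-coupled receptor that amplifies inflammatory signals, was at most 0.885 CPM in CRE- KCs and 9.56 to 15.9 CPM in CRE+ Tim4+ KCs. These 3 innate immune genes were thus close to undetected in control KCs and moderate in every CRE+ Tim4+ sample.

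*Cd34*, a sialomucin of hematopoietic progenitors and endothelium, had 1.14, 2.89 and 4.92 CPM in CRE- KCs and 36.1, 62.9 and 110.1 CPM in CRE+ Tim4+ KCs, and rose by 4.53 on the log2 scale (SE 0.41, adjusted p = 2.1e-07). Without replicates 2 and 3, the samples with the most endothelial RNA, the log2 fold change of *Cd34* was 4.71 (adjusted p = 6.06e-07). None of the 21 tested endothelial markers was called by edgeR, limma-voom or DESeq2, but 11 were higher and none lower at edgeR's unadjusted p under 0.05. *Tmem154*, which encodes a transmembrane protein, rose from a range of 0.283 to 1.17 CPM to one of 17.8 to 49.1 CPM (log2 fold change 5.29, SE 0.32, adjusted p = 1.5e-09), and *Plp2*, a proteolipid protein of intracellular membranes, from 0.33 to 1.63 CPM to 17.5 to 40.9 CPM (4.999, SE 0.32, adjusted p = 3.09e-09). The remaining genes of this group were *Spint1* (log2 fold change 6.24), *Ccdc92* (5.53), *Gm3336* (4.81) and *Rtn4rl1* (4.33, adjusted p = 0.000957). *Rtn4rl1*, of the Nogo receptor family, varied most, from 2.6 to 28.6 CPM among CRE+ Tim4+ KCs, and with limma-voom its adjusted p was 0.1184.

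**Figure D3:**
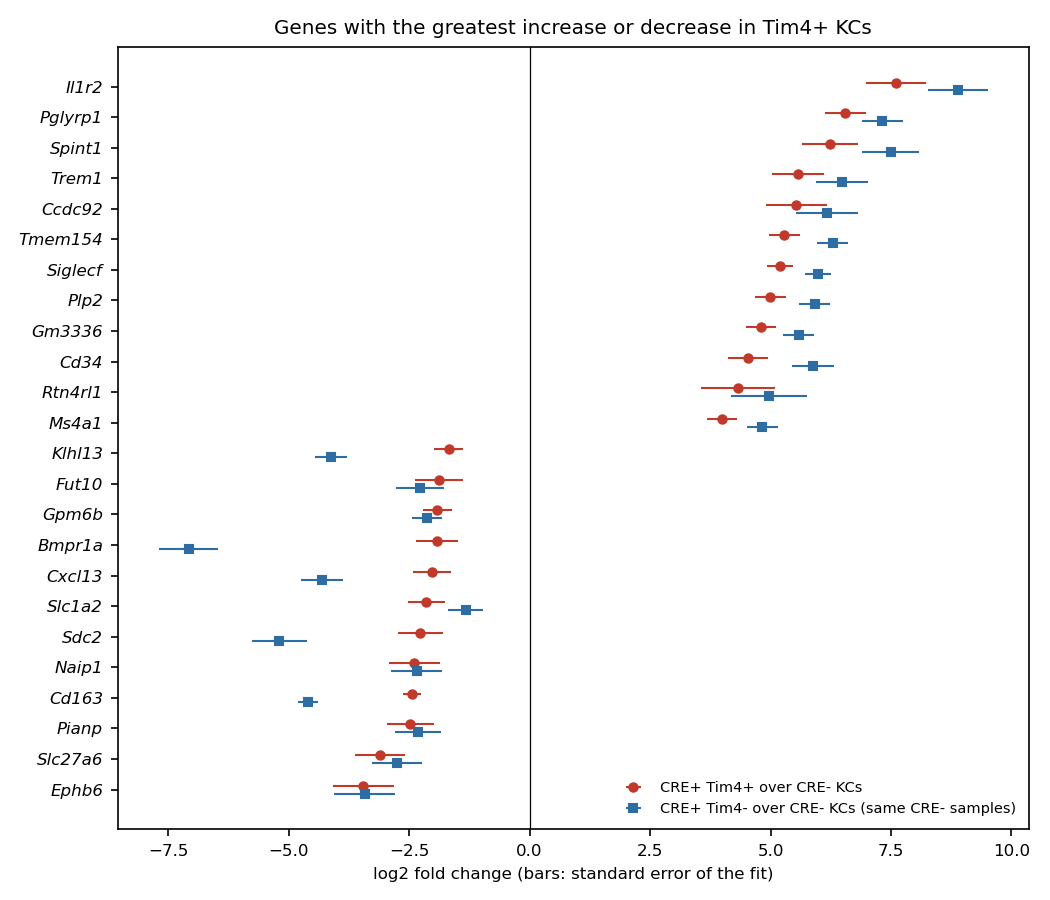
Log2 fold change over CRE- KCs, with the standard error of the fit as bars, of the 12 genes with the greatest increase and the 12 with the greatest decrease in CRE+ Tim4+ KCs (circles), beside the same genes in CRE+ Tim4- KCs (squares), which are set against the same CRE- samples. *Il1r2* is at the top at 7.60 and *Ephb6* at the bottom at -3.45.

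The promoters of the called genes were searched for CACCTG on both strands (CAGGTG on the other), since ZEB factors bind that E-box core. RefSeq promoters of 300 bases, from 250 before to 50 after each start on GRCm38.p6, were at hand for 184 of the 242 higher and 33 of the 47 lower genes. The letters were in a promoter of 63 higher genes (34.2%) and 7 lower genes (21.2%), beside 19.7% of the 9340 genes tested and not called and 22.6% of all 27025 genes with a promoter. Counted per promoter, the shares were 27.6% of 232 for higher genes, 10 of 50 for lower genes and 20.2% of all 32851 promoters. More than 1 copy was present for 9.78% of the higher genes and 2.42% of the genes not called. Of the 12 genes with the greatest increase, *Pglyrp1*, *Ccdc92*, *Tmem154* and *Gm3336* held the letters, and *Siglecf*, *Il1r2*, *Spint1*, *Trem1* and *Cd34* did not hold them in this window. The sequences below, 5' to 3' on the strand of the gene with each match in capitals, show 2 of the former and *Spint2*, a protease inhibitor gene described further on that was picked after its values were seen because it holds 3 copies. A match is a string of letters and no evidence of binding.
Pglyrp1: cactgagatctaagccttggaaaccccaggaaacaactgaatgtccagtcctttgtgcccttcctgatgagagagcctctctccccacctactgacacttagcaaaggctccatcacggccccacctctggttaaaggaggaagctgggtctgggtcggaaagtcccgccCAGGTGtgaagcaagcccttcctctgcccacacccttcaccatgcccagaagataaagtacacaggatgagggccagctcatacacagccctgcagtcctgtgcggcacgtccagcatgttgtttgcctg
Tmem154: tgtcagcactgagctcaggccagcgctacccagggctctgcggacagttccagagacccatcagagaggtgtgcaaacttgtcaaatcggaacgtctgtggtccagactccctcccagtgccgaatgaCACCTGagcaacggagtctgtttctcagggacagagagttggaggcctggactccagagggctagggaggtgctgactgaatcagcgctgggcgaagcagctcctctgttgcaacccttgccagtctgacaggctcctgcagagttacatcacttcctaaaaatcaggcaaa
Spint2: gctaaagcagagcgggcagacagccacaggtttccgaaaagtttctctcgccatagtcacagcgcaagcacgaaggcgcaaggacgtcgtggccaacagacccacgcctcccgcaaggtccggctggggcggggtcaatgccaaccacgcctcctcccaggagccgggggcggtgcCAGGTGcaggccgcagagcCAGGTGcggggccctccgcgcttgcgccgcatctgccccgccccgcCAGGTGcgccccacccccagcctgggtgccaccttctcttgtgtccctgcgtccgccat
The *Pglyrp1* promoter is at chr7:18884440-18884739 on the plus strand, and its match begins 80 bases before the start. That of *Tmem154* is at chr3:84665942-84666241, also on the plus strand, with the match 122 bases before the start. The *Spint2* promoter is on the minus strand at chr7:29281928-29282227, where the matches begin 74, 55 and 9 bases before the start. *Gm3336*, a predicted gene, had its match 16 bases before the start and *Ccdc92* 241 bases before it.

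The 12 genes with the greatest decrease were led in abundance by *Cd163*, the scavenger receptor for haptoglobin-hemoglobin complexes, on chromosome 6 from 124304636 to 124330529. It had 1151, 1273 and 1586 CPM in CRE- KCs and 159, 227 and 351 CPM in CRE+ Tim4+ KCs, and fell (log2 fold change -2.44, SE 0.19, adjusted p = 2.51e-08) to 0.184 of the control level. *Cxcl13*, the chemokine that attracts B cells through CXCR5, had 147, 171 and 429.9 CPM in CRE- KCs and 31.1, 50.03 and 79.96 CPM in CRE+ Tim4+ KCs (-2.02, SE 0.39, adjusted p = 0.00213). Its highest CRE- value, in replicate 4, was well above the other 5, which ended at 241 CPM.

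*Sdc2*, the heparan sulfate proteoglycan syndecan-2, fell from a range of 41.6 to 80.9 CPM to one of 6.58 to 22.4 CPM (log2 fold change -2.27, SE 0.47, adjusted p = 0.00416), and *Slc1a2*, a glutamate transporter, from 58.5 to 88.7 CPM to 6.64 to 28.2 CPM (-2.14, SE 0.38, adjusted p = 0.00091). *Bmpr1a*, a type I receptor for bone morphogenetic proteins, ranged from 25.6 to 38.5 CPM and then from 4.24 to 15.4 CPM (-1.93, SE 0.44, adjusted p = 0.00846). With DESeq2, and without replicates 2 and 3, *Bmpr1a* did not pass. Lower in abundance were *Ephb6*, a kinase-inactive ephrin receptor (log2 fold change -3.45), *Slc27a6*, a fatty acid transport protein (-3.10), *Pianp* (-2.47), *Naip1* (-2.39), *Gpm6b* (-1.91), *Fut10* (-1.88) and *Klhl13* (-1.68). All of these had medians under 31 CPM in CRE- KCs. *Naip1*, a sensor of bacterial secretion systems, has close paralogs among which counting could split reads, so its value is uncertain, and the call of *Fut10* was lost without 3 single samples (CRE- KC replicate 5 and CRE+ Tim4+ KC replicates 4 and 6).

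Among the called genes, the largest gains in CPM, rather than in fold, were in *Marco*, *Ly6a*, *Coro1a*, *Ccr3* and *Asb2*. *Marco*, a scavenger receptor of macs for bacteria and particles, had 307, 533 and 1162 CPM in CRE- KCs and 1221, 1660.5 and 2026 CPM in CRE+ Tim4+ KCs. The groups met closely at 1162 and 1221 CPM without overlapping, and the log2 fold change was 1.39 (SE 0.29, adjusted p = 0.00428). *Ly6a*, which encodes Sca-1 and belongs to a family of close paralogs, rose by 2.23 on the log2 scale (SE 0.35, adjusted p = 0.000277), from a median of 184 to one of 842 CPM. *Coro1a*, an actin regulator of leukocytes, rose by 1.19 (SE 0.17, adjusted p = 8.6e-05), from a median of 245 to 517 CPM, and *Asb2*, a ubiquitin ligase subunit, by 1.99 (SE 0.26, adjusted p = 3.51e-05).

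The largest losses in CPM among the called genes were in *Clec4f*, *Cd163*, *C6*, *Cd300ld* and *Fabp7*. *C6*, a component of the terminal complement complex, had 1155, 1392 and 1533 CPM in CRE- KCs and 532, 614 and 799.6 CPM in CRE+ Tim4+ KCs. It fell without overlap between groups by 1.05 on the log2 scale (SE 0.16, adjusted p = 0.000252), so close to the fold limit that the call was lost without CRE+ Tim4+ KC replicate 6. *Cd300ld*, of the CD300 receptor family, went from 797 to 948 CPM down to 343 to 442 CPM (log2 fold change -1.09, SE 0.092, adjusted p = 8.05e-08). *Fabp7*, a fatty acid-binding protein, fell by 1.21 on the log2 scale (SE 0.23, adjusted p = 0.00167), with medians of 344 and 149 CPM.

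Among 35 tested genes listed for KC identity, 10 were lower and 1 was higher, beside 0.376% and 1.94% of all genes tested, and the list's median log2 fold change was -0.49. A further 9 passed the adjusted p downward below the fold limit, 1 did so upward and 14 did not pass. The higher gene was *Marco*. Beside *Clec4f*, *Cd163*, *Cxcl13*, *C6*, *Fabp7*, *Slc1a2* and *Sdc2*, the lower genes included *Slc1a3*, another glutamate transporter (-1.36), and *Pcolce2*, a procollagen processing enhancer (-1.08). The study lists *Cd163*, *Cxcl13*, *C6*, *Sdc2* and *Marco* among genes that differ between monocyte-derived and embryonic KCs, and left such genes out of a comparison as related to origin. Its list also holds *Slc27a6*, *Bmpr1a* and *Klhl13*. The origin of the cells was not tested here. Some other abundant KC genes passed the adjusted p but stayed under the fold limit. *Cd5l*, a secreted scavenger receptor family protein and LXR target, had medians of 7337 and 5484 CPM (log2 fold change -0.45, SE 0.10, adjusted p = 0.00777), and *Vsig4*, a complement receptor, of 3202 and 2298 CPM (-0.46, SE 0.11, adjusted p = 0.0121), with no overlap for either. *Adgre1*, which encodes F4/80, *Cd68*, *C1qa* and *C1qb* did not pass, with log2 fold changes from -0.19 to 0.09. Of 25 transcription factors of KCs and macs, 1 was called. This was *Bhlhe40*, which rose from 28.01 to 38.6 CPM to 56.8 to 84.6 CPM (log2 fold change 1.15, SE 0.15, adjusted p = 4.14e-05).

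**Figure D4:**
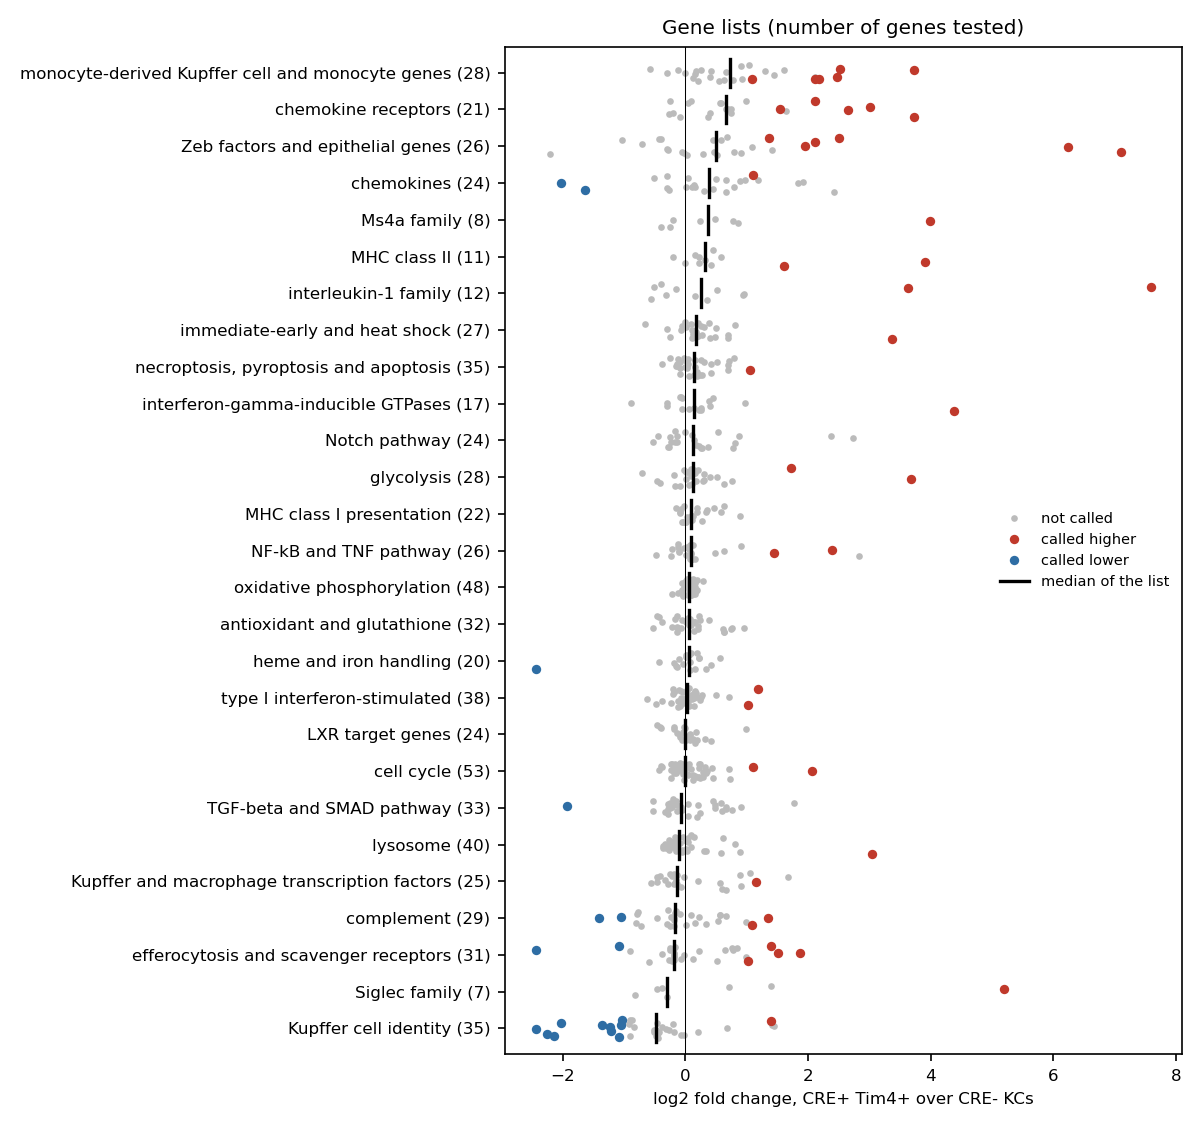
Log2 fold change of CRE+ Tim4+ KCs over CRE- KCs for the tested members of 27 gene lists, one point per gene, with a bar at each list's median and the lists ordered by it. Called genes are red (higher) or blue (lower). The KC identity list lies at the bottom with a median of -0.49, and lists such as chemokine receptors have called members on the right.

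ZEB factors are known to repress epithelial genes, and 6 of the 26 tested genes of the *Zeb* and epithelial list were higher and none lower, beside 1.94% and 0.376% of all genes tested. The median log2 fold change of the list was 0.49. The filter on low counts left out 11 of the 37 listed genes. *Spint1* and *Snai3*, near 0 in CRE- KCs, passed it through the CRE+ groups, so the share of higher genes depends on that filter. *Spint1* and *Spint2* encode membrane-bound Kunitz inhibitors of serine proteases that are typical of epithelia. *Spint1* had 0, 0.237 and 0.63 CPM in CRE- KCs and 8.29, 20.2 and 30.3 CPM in CRE+ Tim4+ KCs (log2 fold change 6.24, SE 0.58, adjusted p = 2.99e-07), although with limma-voom its adjusted p was 0.0618. *Spint2* had 4.46, 6.72 and 14.3 CPM and then 26.8, 33.2 and 42.1 CPM (2.12, SE 0.27, adjusted p = 2.13e-05). Neither gene overlapped between groups.

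The other higher genes of that list were *F11r*, a junctional adhesion molecule (log2 fold change 1.36), *Tjp3*, a tight junction scaffold (1.95), *Cdh1*, which encodes E-cadherin, and *Snai3*, a zinc finger factor related to Snail. *Cdh1* remained low, from 0 to 1.09 CPM in CRE- KCs and from 1.53 to 7.49 CPM in CRE+ Tim4+ KCs (2.51, SE 0.60, adjusted p = 0.0119). Its highest sample, replicate 1, stood apart from the other 5, which reached 3.54 CPM. *Snai3* had no count in any CRE- KC sample and 0.471 to 1.14 CPM in CRE+ Tim4+ KCs, at least 34.8-fold higher when the CRE- group is set at 3 counts in all. *Zeb1*, the paralog of *Zeb2*, did not pass (log2 fold change 0.51, SE 0.22, adjusted p = 0.23). With at least 10 counts required in every sample, 2 of the 6 remained tested and called, since the low genes were then left out.

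Of 28 tested genes of monocytes and monocyte-derived KCs, 6 were higher and none lower, beside 1.94% and 0.376% of all genes tested, and the median log2 fold change was 0.72. *Cx3cr1*, the fractalkine receptor, had 2.67, 6.57 and 9.06 CPM in CRE- KCs and 18.9, 37.5 and 209 CPM in CRE+ Tim4+ KCs, and rose by 3.73 on the log2 scale (SE 0.66, adjusted p = 0.000894). The CRE+ Tim4+ samples were widely spread, and with limma-voom the adjusted p was 0.083. *Itgax*, which encodes CD11c, had 2.33, 8.09 and 11.9 CPM and then 27.4, 43.7 and 53.6 CPM (2.47, SE 0.31, adjusted p = 1.9e-05), and *Itgam*, which encodes CD11b, medians of 86.5 and 190.4 CPM (1.09, SE 0.14, adjusted p = 3.35e-05). *S100a11*, a calcium-binding protein (log2 fold change 2.53), *Napsa*, an aspartic protease (2.18), and *Ccr2*, the receptor by which monocytes leave the bone marrow (2.11), were the others. *Ccr2* was low in both groups, from 2.34 to 7.63 CPM and from 10.1 to 30.9 CPM. *Ly6c2*, which defines classical monocytes, reached at most 0.381 CPM in CRE- KCs and 1.80 CPM in CRE+ Tim4+ KCs.

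Chemokine receptors had 5 higher and no lower genes among 21 tested, again beside 1.94% and 0.376% of all genes, with a median log2 fold change of 0.66. Beside *Cx3cr1* and *Ccr2* these were *Ccr3*, the receptor for eotaxins, *Ccr1* and *Cxcr4*. *Ccr3* had 44.1, 54.99 and 63.7 CPM in CRE- KCs and 112, 288 and 610.1 CPM in CRE+ Tim4+ KCs, and rose by 2.66 on the log2 scale (SE 0.38, adjusted p = 0.000107). *Ccr1*, a receptor for CCL3 and CCL5, overlapped between groups, with up to 4.95 CPM in CRE- KCs and 4.06 to 41.5 CPM in CRE+ Tim4+ KCs (3.01, SE 0.76, adjusted p = 0.0189). Its call was lost without CRE+ Tim4+ KC replicate 4, the sample at 41.5 CPM. With limma-voom 2 chemokine receptors were higher, and without that replicate 3 were. Among 24 chemokines, *Ccl4*, an inflammatory chemokine, rose (1.10, SE 0.28, adjusted p = 0.0188, lost without CRE- KC replicate 2 or CRE+ Tim4+ KC replicate 6) and *Cxcl13* and *Cxcl14* fell, the latter by 1.64 on the log2 scale (SE 0.29, adjusted p = 0.000824).

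Some of the higher genes lie next to each other in the genome. Of 235 placed higher genes, 16.2% had another higher gene within 100 kb, beside 6.71% of the 11648 placed genes that were tested and not called and 6.52% of 46 lower genes. On chromosome 9, *Ccr1*, *Ccr3* and *Ccr2* were higher, while *Ccr1l1*, between them, did not pass (log2 fold change 0.83, adjusted p = 0.187). In the *Trem* cluster of chromosome 17, *Trem1*, *Trem3* (1.47), *Trem2* (1.86) and *A530064D06Rik* (2.21) were higher, and the other 5 tested genes, *Treml4* and *Treml2* among them, did not pass. In the *Cd300* cluster of chromosome 11, *Cd300lf* rose by 1.02 on the log2 scale whereas *Cd300ld* fell by 1.09. Reads from paralogs in such clusters can be shared, and the sharing was not tested.

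Of 31 tested scavenger and efferocytosis receptors, 4 were higher (12.9%) and 2 lower (6.45%), beside 1.94% and 0.376% of all genes tested. The list's median log2 fold change was -0.18. Higher beside *Marco* were *Trem2*, a DAP12-coupled lipid receptor, from a median of 32.7 to one of 122 CPM (1.86, SE 0.39, adjusted p = 0.0047), *Havcr2*, which encodes Tim-3 (1.51, adjusted p = 0.0463), and *Cd300lf*, a sphingolipid receptor. The lower genes were *Cd163* and *Cd300ld*. The call of *Havcr2* was lost without any single sample other than CRE+ Tim4+ KC replicates 2 and 5. Without CRE- KC replicate 1, which also took the log2 fold change of *Cd300lf* under the limit, 2 of these receptors were higher. *Cd163* was also the one gene called among 20 of heme and iron handling. *Slc40a1*, the iron exporter ferroportin, and *Ftl1*, the ferritin light chain, were at medians of 13193 and 12391 CPM and of 14334 and 14219 CPM, with log2 fold changes of -0.03 and 0.01.

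Complement genes moved in both directions, 2 higher and 2 lower of 29 tested (6.9% each), beside 1.94% and 0.376% of all genes tested. Their median log2 fold change was -0.17. *C3*, the central component, rose from a median of 78.4 to one of 271 CPM (log2 fold change 1.34, SE 0.21, adjusted p = 0.000294), with overlap between 131 and 164 CPM, and *Itgam*, an integrin chain of complement receptor 3, rose as given above. *C2*, the protease of the classical pathway convertase, fell from 154 to 289.7 CPM to 65.7 to 91.6 CPM (-1.41, SE 0.23, adjusted p = 0.000374), as did *C6*.

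Genes of the interleukin-1 family were called higher for 2 of 12 tested (16.7%), beside 1.94% of all genes tested. They were *Il1r2* and *Il1f9*, the latter encoding interleukin-36 gamma. The filter on low counts left out 6 of the 18 measured genes of this list. *Il1r2*, near 0 in CRE- KCs, passed it through the CRE+ groups, so the share of higher genes depends on that filter. *Il1f9* had 0.58, 0.867 and 1.17 CPM in CRE- KCs and 6.95, 10.01 and 19.4 CPM in CRE+ Tim4+ KCs, and rose by 3.63 on the log2 scale (SE 0.30, adjusted p = 6.86e-08). The cytokine genes *Il1a* (0.15) and *Il1b* (-0.41) did not pass. In the list of 26 genes of the NF-kB and TNF pathway, 2 were higher (7.69%), *Traf1*, a TNF receptor adaptor (1.45, adjusted p = 0.036), among them. The call of *Traf1* was lost without any of CRE- KC replicates 1 to 4 or CRE+ Tim4+ KC replicates 3 to 6. Among 27 immediate-early and heat shock genes, 1 was called (3.7%). This was *Dusp5*, an ERK phosphatase, with 0.381 to 1.17 CPM in CRE- KCs and 5.15 to 10.6 CPM in CRE+ Tim4+ KCs (3.36, SE 0.32, adjusted p = 4.09e-07).

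Antigen presentation genes were called higher in 2 of 11 class II genes (18.2%), beside 1.94% of all genes tested, and in none of 22 class I genes. No class I gene was called by limma-voom or DESeq2 either, and 6 were higher and 1 lower at edgeR's unadjusted p under 0.05. Both called genes encode chains of H2-O, which tempers peptide loading onto class II molecules. *H2-Oa* had 0.66, 1.03 and 1.46 CPM in CRE- KCs and 9.67, 15.5 and 23.1 CPM in CRE+ Tim4+ KCs (log2 fold change 3.91, SE 0.27, adjusted p = 4.68e-09), and *H2-Ob* 3.3, 6.25 and 9.01 CPM and then 11.7, 19.1 and 29.3 CPM (1.62, SE 0.23, adjusted p = 0.000111). Neither overlapped between groups. *Cd74*, the invariant chain, was abundant at medians of 6572 and 9147 CPM and did not pass (0.22, SE 0.22, adjusted p = 0.689). Interferon-stimulated genes gave 2 higher of 38 (5.26%), again beside 1.94% of all genes tested. They were *Isg20*, an exonuclease (1.18, adjusted p = 0.0122), and *Ifi44* (1.02, adjusted p = 0.00514). Both calls were lost without CRE+ Tim4+ KC replicate 3, and that of *Ifi44* also without replicate 2 of that group or CRE- KC replicate 3, 5 or 6. *Tgtp1*, an interferon-inducible GTPase, was higher (4.38, SE 0.38, adjusted p = 1.2e-07), 1 of 17 such genes (5.88%). It has a near-identical paralog, *Tgtp2*, so its count is uncertain.

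In the cell cycle list of 53 genes, 2 were higher (3.77%), beside 1.94% of all genes tested. They were *Cdkn1a*, which encodes the cyclin-dependent kinase inhibitor p21, and *Ccnd2*, a D-type cyclin. *Cdkn1a* had 10.8, 17.5 and 24.9 CPM in CRE- KCs and 56.2, 69.5 and 94.2 CPM in CRE+ Tim4+ KCs, and rose without overlap between groups (log2 fold change 2.07, SE 0.20, adjusted p = 4.09e-07). *Ccnd2* overlapped between groups (1.11, SE 0.29, adjusted p = 0.0241) and its call was lost without CRE- KC replicate 2, 4, 5 or 6 and without CRE+ Tim4+ KC replicate 3 or 6. Of 35 genes of necroptosis, pyroptosis and apoptosis, 1 was called (2.86%), again beside 1.94% of all genes tested. This was the death receptor gene *Fas* (1.06, SE 0.25, adjusted p = 0.00992), whose median went from 6.84 to 12.2 CPM. Its call was lost without CRE- KC replicate 6 or CRE+ Tim4+ KC replicate 3. *Mcl1*, an anti-apoptotic gene, had medians of 884 and 862 CPM (adjusted p = 0.997). A further 4 genes of this list passed the adjusted p upward below the fold limit. Downward, 1 did so, *Tnfrsf1b* (-0.39, adjusted p = 0.000765). The list's median log2 fold change was 0.14.

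Lysosomal genes gave 1 higher of 40 (2.5%), near the 1.94% of all genes tested. This was *Ctse*, the aspartic protease cathepsin E, which had 0, 0.559 and 2.71 CPM in CRE- KCs and 6.44, 7.78 and 9.1 CPM in CRE+ Tim4+ KCs (3.04, SE 0.51, adjusted p = 0.000563). A further 8 passed the adjusted p downward with changes below the fold limit, *Ctsb*, cathepsin B, among them, at medians of 14617 and 11563 CPM (-0.32, SE 0.048, adjusted p = 0.000167). Of the 28 tested genes of the glycolysis list, 2 were higher (7.14%), beside 1.94% of all genes tested. They were the aldolase gene *Aldoc* and *Ddit4*, an inhibitor of mTORC1 induced by stress that is on the list but is no glycolytic enzyme. *Ddit4* had 1.18, 1.58 and 2.23 CPM in CRE- KCs and 14.5, 18.5 and 34.3 CPM in CRE+ Tim4+ KCs (3.68, SE 0.28, adjusted p = 1.88e-08), and *Aldoc* medians of 3.77 and 13.4 CPM (1.73, SE 0.35, adjusted p = 0.00337). None of 48 oxidative phosphorylation, 32 antioxidant or 24 Notch pathway genes was called by edgeR, limma-voom or DESeq2. By edgeR, 1.94% of all genes tested were higher and 0.376% lower. At edgeR's unadjusted p under 0.05, 1 of the oxidative phosphorylation genes was lower, and 6 genes were higher and 4 lower in each of the other 2 lists. Below the fold limit, 1 antioxidant gene passed the adjusted p upward and 2 downward, and 1 Notch pathway gene did so downward. Of 33 TGF-beta pathway genes the one called was *Bmpr1a* (3.03% lower, beside 0.376% of all genes tested).

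Apart from *Snai3*, 7 higher genes had no count in any CRE- KC sample. Set against 3 counts over the CRE- group, *Nox1*, a superoxide-generating oxidase, was at least 175-fold higher in CRE+ Tim4+ KCs, where it ranged from 1.10 to 13.8 CPM. The same bound was 93.9-fold for *Serpinb1c*, 92.3-fold for *Dhrs9*, a retinol dehydrogenase, and 55.5-fold for the keratin gene *Krt83*. For *Gfpt2*, *Pxylp1* and *Krt85* it was 49.9-fold, 25.9-fold and 23.97-fold. All of these, *Nox1* aside, stayed under 5 CPM.

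The CRE+ Tim4- KCs came from CRE+ mice as well and show which of the changes differed between Tim4+ and Tim4- cells. Between them, 55 genes (0.44%) were higher and 626 (5.01%) lower in the Tim4- than in the Tim4+ KCs by the same test. For samples of these groups that share a replicate number, r of the deviations from the group means was 0.112 to 0.250. That between different numbers was not computed, and the labels do not state pairs. A fit over the 12 CRE+ samples with the number as a block was added after the data were seen. It gave 87 higher (0.718%) and 635 lower (5.24%) genes of 12112 tested. Values below are from the shared fit unless the block is named, and no named gene that differed by an adjusted p under 0.05 in the shared fit missed it with the block. *Marco* was higher in CRE+ Tim4+ KCs than in either other group, with 112 to 436 CPM in Tim4- KCs and a log2 difference of -2.64 (adjusted p = 1.76e-05). *Cdkn1a* had 24.4 to 48.1 CPM in Tim4- KCs and was likewise lower there than in Tim4+ KCs (-1.23, adjusted p = 0.000213), and *Cd79b*, lower in the Tim4+ cells, had 41.7 to 80.7 CPM in the Tim4- cells (1.37).

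For other genes the Tim4- KCs lay further from control KCs than the Tim4+ KCs did. *Cd163* was at 35.9 to 76.5 CPM in Tim4- KCs (log2 difference from Tim4+ KCs -2.16, adjusted p = 6.09e-07), *Bmpr1a* at 0 to 0.953 CPM (-5.14), *Sdc2* at 0 to 4.36 CPM (-2.92), *C2* at 2.91 to 14.1 CPM (-3.14) and *Cxcl13* at 3.95 to 23.1 CPM (-2.28). All of these were lower in the Tim4- cells by the test. *Siglecf* ranged from 252 to 429.7 CPM in Tim4- KCs, above every Tim4+ sample, with a log2 difference of 0.79 (adjusted p = 0.0212), and *Ms4a1* from 108 to 185 CPM (0.83, adjusted p = 0.048). *Ccr2* was at 60.1 to 160.1 CPM (2.40). For *Ephb6* (0.03), *Slc27a6* (0.35), *Pianp* (0.15) and *Gpm6b* (-0.22), a difference between the CRE+ groups passed neither the shared fit nor that with the block, which does not show that they were equal.

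Further genes differed between the CRE+ groups only in the fit with the block, so these differences rest on the pairing taken by replicate number. *Ccr3* was higher in the Tim4- sample of each of the 6 pairs, with a log2 difference of 0.33 (adjusted p = 0.00354 with the block and 0.662 in the shared fit). The same was seen for *Cx3cr1* (1.23, adjusted p = 7.56e-05 with the block and 0.267 without), *Ccr1* (1.63, 4.38e-05 and 0.131) and *Ly6a* (0.74, 4.98e-05 and 0.181). These genes, all higher in Tim4+ than in control KCs, were thus higher again in Tim4- KCs by the fit with the block only. *Trem2* was lower in the Tim4- sample of every pair (-0.81, adjusted p = 0.00304 with the block and 0.323 without).

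Markers of other cells were summed per sample to show what else the sorts may have held, and their part in the results was not tested. The T and NK cell sum was 32.9 to 56.6 CPM in CRE- KCs and 49.8 to 95.8 CPM in CRE+ Tim4+ KCs, and *Cd3e*, a chain of the T cell receptor complex, was at most 3.28 CPM. None of the 22 tested genes was called by edgeR, where 5 were higher at an unadjusted p under 0.05, or by limma-voom, and DESeq2 called 1 higher. The B cell sum without *Ms4a1* was 299.8 to 415 CPM and 296 to 379.8 CPM. Dendritic cell markers summed to 254 to 366 CPM and 327 to 449.6 CPM. None of 14 was called by edgeR, where 5 were higher and 1 lower at an unadjusted p under 0.05, or by limma-voom, and DESeq2 called 2 higher. Monocyte markers summed to 682 to 875 CPM and 775 to 1002 CPM, with *Ccr2* the one called of 10.

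Eosinophil, basophil and mast cell markers summed to 125 to 174 CPM in CRE- KCs and 223 to 732 CPM in CRE+ Tim4+ KCs. *Ccr3* alone had 44.1 to 63.7 CPM in CRE- KCs and 112 to 610.1 CPM in CRE+ Tim4+ KCs. Without *Ccr3* the sums were 67.4 to 111 CPM and 111.5 to 167 CPM, which met closely without overlapping. The defining granule gene *Epx* had no count in any of the 12 samples, and *Prg2* was at 0 in CRE- KCs and at most 0.239 CPM in CRE+ Tim4+ KCs. The liver endothelial sum had a median of 2621 CPM in CRE- KCs and 3075 CPM in CRE+ Tim4+ KCs, and the median log2 fold change of its 21 tested genes was 0.62. Neutrophil (91.7 to 138 CPM and 94.2 to 128 CPM) and hepatocyte markers (2392 to 3479.8 CPM and 1762 to 3397 CPM) overlapped between groups. None of their 5 and 23 tested genes was called by any of the 3 tools, with 1 neutrophil gene higher and 1 hepatocyte gene lower at edgeR's unadjusted p under 0.05. *Trf* made up most of the hepatocyte sum, with medians of 2520 CPM in CRE- KCs and 2041 CPM in CRE+ Tim4+ KCs. *Alb* had 102 and 106 CPM. Likewise *Bank1* (209 and 231 CPM) was the larger part of the B cell sum and *Treml4* (506 and 546 CPM) of the monocyte sum. Sums carried by a single gene do not measure how many such cells were present.

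**Figure D5:**
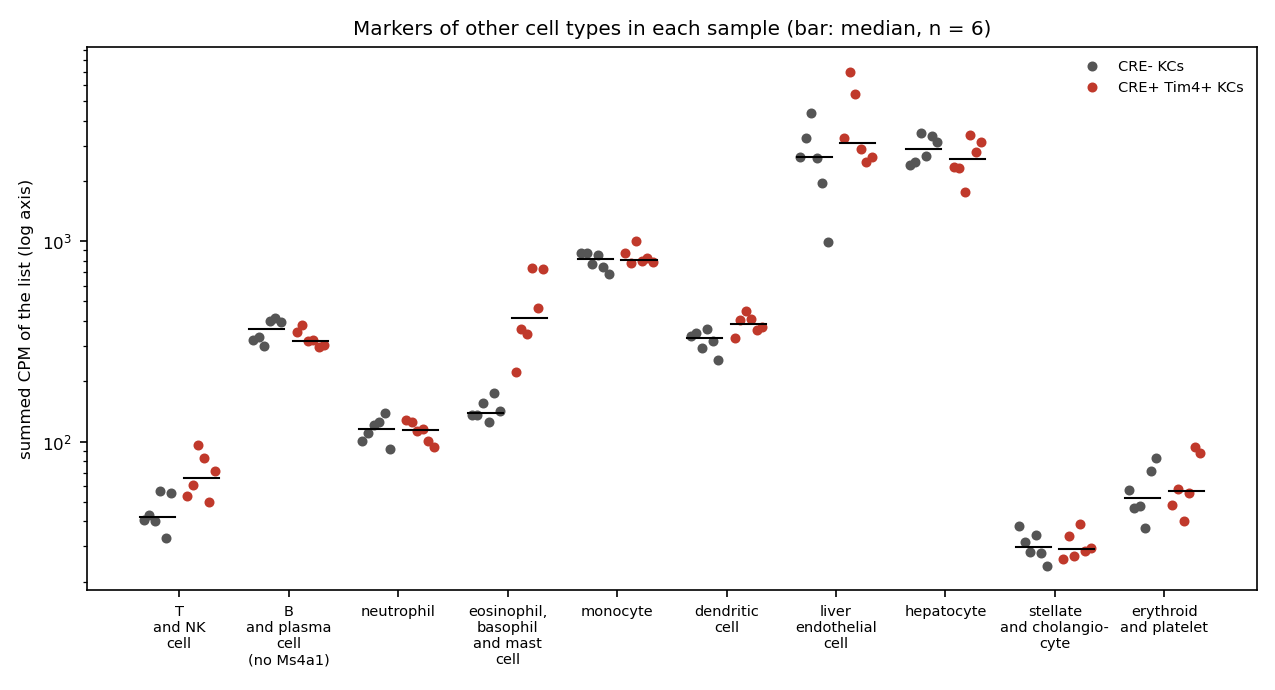
Summed CPM of the markers of other cell types on a log axis in each CRE- KC and CRE+ Tim4+ KC sample, one point per sample with a bar at the median (n = 6 per group). The groups are clear of each other for the eosinophil, basophil and mast cell list, which holds *Ccr3*, and overlap for the other lists, with 2 CRE+ Tim4+ KC samples high in endothelial markers.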

How the data were processed

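Bulk RNA-seq of sorted KCs was compared, and the members and gene lists were chosen with earlier results of these data known. The authors deposited whole-number counts of reads per gene symbol, without normalization, in 24421 gene rows. Per the labels' processing notes, the reads passed through FastQC 0.11.4, Trimmomatic 0.35, TopHat2 2.1.0 and SAMtools 0.1.18, on mm10, and HTSeq-count per the study's methods. The annotation and strand setting are not given in the sources used here. Reads in no gene (5.62% to 8.90% of the reads in the 12 samples compared) and the other tally rows were left out. Without strand, reads of overlapping genes cannot be told apart.

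Counts of the 18 KC samples were fitted with edgeR 4.0.16 in R 4.3.3 (TMM factors, edgeR's filter on low counts, quasi-likelihood test, Benjamini-Hochberg adjustment over 12500 genes), after a test on simulated counts. A call needed an adjusted p under 0.05 and a log2 fold change beyond 1. SE is the fold change over the square root of F. CPM used TMM-scaled library sizes. Genes named were *Zeb2*, *Timd4*, *Clec4f*, *Nr1h3*, *Siglecf* and *Ms4a1*, the 12 called genes that rose most in fold and the 12 that fell most and that did not overlap between groups and had at least 10 CPM in the higher group, the 5 that gained and the 5 that lost most CPM, and per list up to 4 called genes a direction and 2 others. Further genes named were chosen after their values were seen, and some genes that the rules name are not reported here. Results were recomputed with limma-voom (limma 3.58.1, named in the study's methods), DESeq2 1.42.0, RLE factors, other filters, fold limits and samples, a sex covariate and the replicate number as a block. Same-numbered Tim4+ and Tim4- samples of the CRE+ mice were taken as pairs, since r of their deviations from the group means, across genes, was 0.112 to 0.250 in the 6 pairs, so blocked values stand beside results of that comparison. A bound for genes without counts took 3 counts over the group and covers counting error only. Gene positions and promoters are RefSeq's for GRCm38.p6, without promoters of chromosome 18.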

Additional observations from a re-analysis of the deposited data

Results flagged for a closer look

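In 8 of 136 groups of 6 samples, 1 sample's gap to the others exceeded Dixon's 95% critical value, where chance flags about 1 in 20 groups. In CRE- KCs, these were *Siglecf* in replicate 1, at 1.67 CPM below the other 5 (4.68 to 5.90 CPM), *Il1r2* in replicate 4, at 0.544 CPM where the others had none, *Cxcl13* in replicate 4, at 429.9 CPM (others 147 to 241 CPM), and *Aldoc* in replicate 5, at 7.03 CPM (others 3.35 to 4.14 CPM).

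In CRE+ Tim4+ KCs, *Cdh1* stood out in replicate 1 at 7.49 CPM (others 1.53 to 3.54 CPM), *Il1f9* in replicate 5 at 19.4 CPM (6.95 to 11.5 CPM) and *Ddit4* in replicate 5 at 34.3 CPM (14.5 to 20.4 CPM). *Ccr1* stood out in replicate 4 at 41.5 CPM (4.06 to 15.3 CPM).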

How the results depend on the processing

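The 242 higher and 47 lower genes stayed within 1.5 times those counts in most alternatives. The exceptions were at least 10 counts in every sample (156 higher), which tests fewer genes, no fold limit (454 higher, 307 lower), limma-voom (73 lower) and replicates 1 to 4 only (28 lower), which uses fewer samples. With each sample left out in turn, 212 to 240 genes were higher and 35 to 49 lower. DESeq2 called 273 and 60, replicates 1 to 4 only 162 higher, replicates 5 and 6 only 189 and 48, and the 12 samples compared only 233 and 69. With the replicate block, 231 genes were higher and 70 lower. Same-numbered control and Tim4+ samples came from mice of different genotypes and matched in sex, with r of their deviations from -0.016 to 0.207 across genes. That range partly overlaps the 0.112 to 0.250 of the CRE+ pairs, and r between samples of different numbers was not computed. Between the CRE+ groups the replicate block gave 87 genes higher in Tim4- KCs against 55 without it, and 635 lower against 626. None of the 67 named genes that were called reversed. Calls lost numbered 6 with limma-voom (*Ccr1*, *Cx3cr1*, *Havcr2*, *Rtn4rl1*, *Spint1*, *Traf1*), 1 with DESeq2 (*Bmpr1a*), 1 with the block (*Cdh1*), 17 with replicates 1 to 4, 11 with replicates 5 and 6 and 1 to 7 without a single sample. The cause was not tested unless given. A gene with 3 counts in a sample has about 0.13 to 0.16 CPM, which limits statements on genes near 0.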
